A study of Mus musculus with 76 samples.

Results

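The respiratory chain subunits described here were 100 of the 55487 gene IDs in the deposited tables, chosen by gene name. They were the genes whose symbols mark a subunit of complexes I to V: the mt-Nd, mt-Co, mt-Cytb and mt-Atp genes, and the nuclear Nduf, Sdh, Uqcr, Cox and Atp5 families. Names ending in -ps were left out (8 genes). Of the members, 87 lie in the nuclear genome (40 in complex I, 4 in complex II, 8 in complex III, 17 in complex IV and 18 in complex V) and 13 in the mitochondrial genome (7 in complex I, 1 in complex III, 3 in complex IV and 2 in complex V). The rule left out 5 further genes of the chain, Cox4i1, Cox4i2, Ndufab1, Cyc1 and Cycs, which were followed as a separate list.

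The study compared mice labelled Sod1Mut, called SOD1 here, with mice labelled WT. All 76 samples, the WT ones included, carry the strain label SOD1-G93A, a line used as a model of amyotrophic lateral sclerosis in which mutant human SOD1 is expressed. Digested thymus was sorted at day 30 (d30) and day 120 (d120) into the epithelium of the cortex (cTEC) and of the medulla (mTEC), and into 2 T cell populations, CD4 cells and regulatory cells (Treg). Unsorted whole thymus and inguinal lymph node (iLN) were taken at d120. Cells labelled Treg, in samples titled Tregdiff, were cultured without activation (T0) or with activation (T2 and T20). The unit of time was not given. Activation and any differentiation in these cultures cannot be told apart. The 26 groups held 3 libraries each, except WT cTEC and WT CD4 at d30 with 2 each. No label names the promoter of the transgene, the sex of the mice, the activating agent, or whether replicates came from separate animals or cultures, so p-values measure the spread between these libraries, which may be technical.

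Oxidative phosphorylation depends on 2 genomes. The mitochondrial DNA encodes a small core of hydrophobic subunits of complexes I, III, IV and V, transcribed inside the organelle from long polycistronic RNAs, whereas complex II and all remaining subunits are encoded in the nucleus, translated in the cytosol and imported. Complexes I and II pass electrons to complex III, complex IV hands them to oxygen, and complex V (ATP synthase) uses the resulting proton gradient to make ATP. Activated T cells are known to build mitochondria as they leave quiescence, and regulatory T cells are known to rely on respiration more than conventional effector cells do.

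Depth was uneven. Total counts ran from 1269529 to 16776303 in cTEC, from 15135 to 36919936 in mTEC, from 1944589 to 34151147 in Treg, from 837050 to 14047347 in CD4, from 171619 to 19699330 in the cultures and from 63887 to 894958 in iLN. Whole thymus was deposited as TPM, a level corrected for transcript length, with depth unknown. Levels in all other libraries are given as CPM, a gene's counts relative to the library total on the per-million scale. Of the 70 count libraries, 8 had under 300000 counts or fewer than 8000 genes detected. Among these, cTEC SOD1 replicate 3 at d120 had 1836483 counts but only 7627 genes detected. Sod1 was higher in every SOD1 library than in every WT library in 13 of 13 sets. At d120 each sorted population had libraries numbered 1 to 6, and the share of mitochondrially encoded reads differed between libraries numbered 1 to 3 and 4 to 6, as given with the d120 results.

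The mitochondrially encoded counts carry a counting limit that can be read from the sequence. The genes mt-Atp8 and mt-Atp6, both subunits of the membrane part of ATP synthase, share 43 bases, so reads there belong to both. The end of mt-Atp8 (chrM:7910-7969, + strand, mm10) and the start of mt-Atp6 (chrM:7927-7986) are shown with the shared bases in capitals.
mt-Atp8 end: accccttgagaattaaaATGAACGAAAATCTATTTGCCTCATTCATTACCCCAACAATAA
mt-Atp6 start: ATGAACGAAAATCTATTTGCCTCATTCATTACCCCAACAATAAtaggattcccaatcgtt
Nuclear copies of mitochondrial sequence are a second limit. For mt-Co1 (chrM:5328-6872), the catalytic subunit of complex IV, the nuclear pseudogene Gm13340 differed at 37 of 1545 bases, of which 3 fall in the stretch shown (chrM:5808-5867) and are in capitals.
mt-Co1: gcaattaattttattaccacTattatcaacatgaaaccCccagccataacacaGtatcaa
Gm13340: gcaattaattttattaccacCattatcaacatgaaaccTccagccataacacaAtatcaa
With a copy defined as at least 200 aligned bases at 95% identity or more in an annotated nuclear transcript, copies were found for 9 of the 13 genes and not for mt-Nd1, mt-Nd6, mt-Cytb and mt-Atp8. Under that limit lay matches of 93.6% identity to mt-Nd6 over 519 bases (Gm11408) and of 92.9% to mt-Cytb over 1142 bases (Gm11410), and mt-Atp8 is itself only 204 bases long. Counts given to the copies came to between 9.39% and 35.6% (median 17.6%) of the mitochondrially encoded sum in the 70 count libraries. Values of the 9 genes with a copy are therefore uncertain in level.

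Whole thymus gave the only values per transcript length, so that levels could be compared between genes. The highest levels were mitochondrially encoded. Averaged over the 6 libraries, mt-Co1 stood first at 12665 TPM, followed by mt-Atp6 at 8079 and mt-Co3 at 6054, whereas mt-Nd6, the only member read from the opposite strand, was last of the 13 at 1039. The highest nuclear subunit was Atp5b, the catalytic beta subunit of ATP synthase, at 1484 TPM, above mt-Nd6 and above mt-Nd5 at 1088, mt-Atp8 at 1154 and mt-Nd4l at 1227, followed by Cox6a1 at 893 and Atp5e at 805. Median nuclear levels were 345 TPM in complex V, 253 in complex III, 247 in complex IV, 161 in complex I and 143 in complex II. The low end was made of tissue isoforms and gene copies: Cox8c, Cox7b2 and the second Atp5o ID were listed at 0 and Ndufa4l2 at 0.596 TPM. Atp5b read 1481, 1455 and 1516 TPM in SOD1 and 1569, 1361 and 1521 in WT, apart from Cox6a1, the next in the nuclear order (861, 859 and 1047, then 931, 833 and 829.6). Further down, Uqcrfs1, the Rieske iron-sulfur protein of complex III (144, 129.6 and 163, then 137, 142 and 137), overlapped with Sdhb, the iron-sulfur subunit of complex II (193, 169 and 187, then 188, 175 and 155). Nuclear copies of mitochondrial sequence held 33.2% to 64.3% as much TPM as the mitochondrially encoded members in these libraries.

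The balance between the genomes was first described as the log2 ratio of summed mitochondrially encoded to summed nuclear subunit counts in each library, a value that does not depend on scaling between libraries. At d30 the ratio lay between -0.81 and -0.17 in cTEC, between -0.78 and -0.20 in CD4 and between -0.47 and -0.12 in Treg. In mTEC it lay between 1.18 and 2.11, above every library of the other 3 populations. The difference between mTEC and cTEC means was 2.19. At d120 cTEC ran from 0.91 to 2.04, mTEC from 0.88 to 2.68, Treg from -0.67 to 1.87 and CD4 from 0.22 to 1.92. All cTEC and CD4 libraries at d120 were above all of theirs at d30, while mTEC and Treg overlapped between days. In the cultures the ratio was 1.14 to 1.94 at T0, -1.20 to -0.24 at T2 and -1.29 to -0.18 at T20, so that both activated times lay below T0 in every library. In iLN it was 1.57 to 2.39, and in whole thymus, on TPM, 1.0 to 1.63. With only the 4 members that have no nuclear copy within the limits above in the numerator, all these differences kept their direction.

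**Figure D1:**
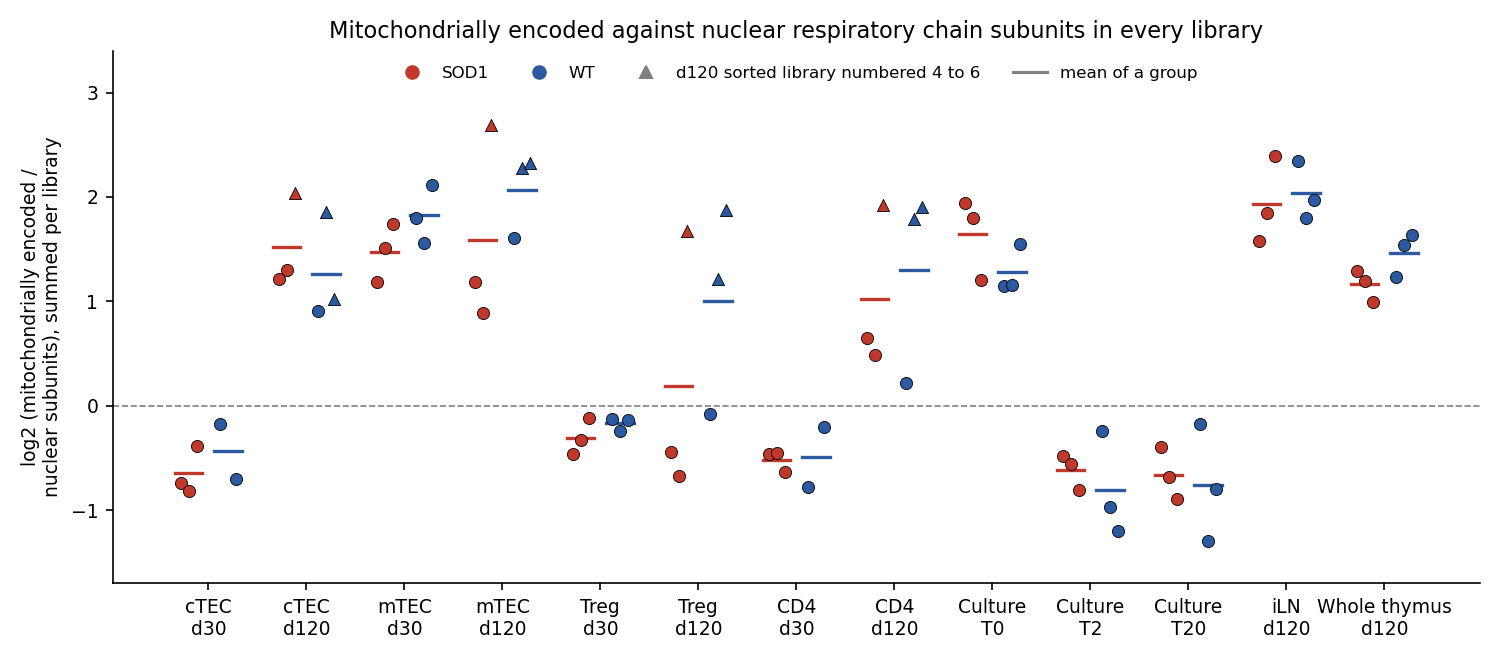
Log2 ratio of summed mitochondrially encoded to summed nuclear subunit counts (TPM for whole thymus) in every library, by set, with SOD1 in red, WT in blue and a bar at each group mean; triangles mark sorted d120 libraries numbered 4 to 6. mTEC at d30 (1.18 to 2.11) stood above cTEC, Treg and CD4 at d30, and the cultures lay at 1.14 to 1.94 at T0 and at -1.29 to -0.18 at T20.

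Between the epithelial populations at d30, the mitochondrially encoded subunits stood higher in mTEC. All 13 mitochondrially encoded subunits were higher in mTEC than in cTEC (edgeR, adjusted p under 0.05, both genotypes averaged), with a median log2 fold change of 1.89, and for 10 of them every mTEC library was above every cTEC library, as for 5.98% of all genes tested. Of all genes tested, 50.5% passed in this comparison, 28.2% as higher and 22.2% as lower. Of 81 nuclear subunits tested, 5 were higher and 17 (21%) lower, a lower share close to that of all genes, with a median of -0.27 against -0.01 over all genes. With median-of-ratios scaling, which moved the median of all genes to 0.16, the nuclear split became 8 higher and 7 lower with a median of -0.10, so the number of lower nuclear subunits depended on the scaling. The 22 nuclear calls became 9 without WT cTEC replicate 3, and 12 to 14 without any of 7 others: cTEC SOD1 replicates 2 and 3, mTEC WT replicates 2 and 3, Treg SOD1 replicates 2 and 3 and CD4 WT replicate 3. In sorted bulk RNA, fewer cells of a type and less RNA per cell cannot be told apart.

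Among the mitochondrially encoded genes, mt-Cytb, the cytochrome b of complex III (chrM:14145-15288), read 1141, 1141, 1768, 1212 and 1482 CPM in the 5 cTEC libraries (3 SOD1, then 2 WT). In mTEC its lowest, median and highest values were 4963, 6136 and 7991. Every mTEC library was thus above every cTEC library, and the log2 fold change was 1.99 ± 0.23 (SE, adjusted p = 2.5e-06). The complex I subunit mt-Nd4 read 500.3, 421, 720.1, 505 and 609 in cTEC against 1850, 2498 and 3398 in mTEC, and its change was 1.98 ± 0.22 (adjusted p = 1.73e-06). The smallest adjusted p of the group belonged to mt-Atp8, at 1.89 ± 0.20 (adjusted p = 9.53e-07), and mt-Co1 stood at 2.10 (adjusted p = 9.52e-06). mt-Nd2, a further complex I subunit, followed at 1.80.

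Of the nuclear subunits, the 4 genes of complex II, which is also the succinate dehydrogenase of the citric acid cycle, were all lower in mTEC, with a median of -0.58. Sdhb, its iron-sulfur subunit, read 163, 192, 208, 164 and 219 CPM in cTEC and 66.1, 129 and 150.1 in mTEC. No mTEC library reached the lowest cTEC library, and the change was -0.70 ± 0.17 (adjusted p = 0.0018). Sdha, the flavoprotein that oxidises succinate, changed by -0.53 ± 0.13 (adjusted p = 0.00204), with overlap through the shallowest mTEC library alone, which had 15135 counts and read 463 where the other 5 ran from 189.8 to 235 and cTEC from 245. In complex I, 7 of 38 tested were lower and 2 higher, none of 8 passed in complex III, and in complex V 5 of 17 were lower and 1 higher.

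The smallest adjusted p of a nuclear subunit was that of Ndufa11, an accessory subunit of the complex I membrane arm, at -1.54 ± 0.22 (adjusted p = 1.97e-05). It read 185, 246, 281, 108 and 306 CPM in cTEC and 72.2, 87.3 and 132 in mTEC, and only the shallowest mTEC library, at 132, was above the lowest cTEC library, the other 5 reaching 96.4. Atp5h, a stalk subunit of ATP synthase, changed by -0.67 ± 0.15 (adjusted p = 0.00133), and Ndufs3, a core subunit of the complex I matrix arm, by -0.66 ± 0.16 (adjusted p = 0.00218). Against this direction, Ndufc2, a small complex I subunit, was higher in mTEC: 93.1, 106, 124, 106 and 130.3 in cTEC against 199, 229.9 and 330.4, without overlap (0.83 ± 0.15, adjusted p = 0.000149). Atp5e, the epsilon subunit of ATP synthase, was also higher, at 0.41 ± 0.16 (adjusted p = 0.0369).

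The other 3 nuclear subunits higher in mTEC were tissue isoforms at low level. Cox6a2 and Cox7a1 are the forms of cytochrome oxidase subunits used in heart and skeletal muscle, and Ndufa4l2 is a hypoxia-inducible relative of Ndufa4. Their log2 fold changes were 3.12 ± 0.84 for Cox6a2 (adjusted p = 0.00439), 1.73 ± 0.50 for Cox7a1 (adjusted p = 0.00762) and 2.51 ± 0.68 for Ndufa4l2 (adjusted p = 0.00481). Median levels in mTEC were only 2.43, 2.37 and 2.53 CPM, against 0.241, 0.542 and 0.361 in cTEC. Summed muscle markers (Ckm, Acta1, Myh2 and Chrna1) lay between 107 and 257 CPM in mTEC at d30 and between 18.4 and 121 at d120, and at no more than 2.4 in cTEC. Their part in the isoform values was not tested.

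Cell type markers bore on the epithelial comparison as well. The leukocyte gene Ptprc stood at 172 to 461 CPM in cTEC at d30 and at 0 to 34.9 in mTEC at d30. The 6 double-positive thymocyte markers summed to 447 to 897 in cTEC at d30. The cTEC list (Psmb11, Prss16 and others) summed to 8869 to 30042 there, and the mTEC list (Aire, Krt5 and others) to 2180 to 3054 in mTEC and 624 to 1347 in cTEC. Summed myeloid markers went the other way, at 391 to 550 in mTEC at d30 and 62.4 to 352 in cTEC at d30. The part of thymocyte or myeloid RNA in the mTEC and cTEC difference was not tested.

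At d120 the same comparison passed for none of 78 nuclear and none of 13 mitochondrially encoded subunits (edgeR), where 17% of all genes passed. At an unadjusted p under 0.05 there were 2 nuclear and 1 mitochondrially encoded, and DESeq2 passed 1 and 0. mt-Cytb illustrates the overlap, with 3215, 3804 and 7788 CPM (lowest, median, highest) in cTEC and 3062, 5680 and 10393 in mTEC at d120. The cTEC values at d120 lay within the mTEC range. Leaving out cTEC SOD1 replicate 3 or CD4 WT replicate 1 gave 1 nuclear call, and leaving out cTEC WT replicate 2 gave 1 mitochondrially encoded call. Among libraries numbered 4 to 6, 20 of the nuclear subunits were higher in mTEC (16.2% of all genes passed). Among those numbered 1 to 3 only 1 was (7.38%). The cTEC libraries numbered 4 to 6 include SOD1 replicate 3, with few genes detected.

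Epithelial and T cells were then compared at d30 as the mean of mTEC and cTEC against the mean of Treg and CD4. Here 11 of 13 mitochondrially encoded subunits were higher in epithelium (median 1.03), but this average combined mTEC, which stood apart, with cTEC, which lay in the T cell range, so the libraries overlapped for each of the 11. mt-Cytb, for example, read 1826, 1106, 1126, 992 and 1384 CPM in CD4 and 1355, 1443 and 1515 in Treg, values shared with cTEC, and its averaged change was 1.21 ± 0.16 (adjusted p = 1.34e-06). Of 81 nuclear subunits, 25 were higher and 9 lower, with a median of 0.13 against 0.33 over all genes. Since 62.7% of all genes passed (37% as higher and 25.7% as lower), the 34 nuclear calls were a smaller share than the background, and they were 22 without CD4 WT replicate 3.

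The nuclear genes with the smallest adjusted p were mostly complex I accessory subunits and isoforms. Ndufa11 was higher in epithelium at 1.51 ± 0.15 (adjusted p = 7.05e-08), with 39.9, 47.5 and 66.2 CPM in Treg, below all cTEC and mTEC libraries. In CD4 it ran from 48.2 to 80.9, which overlapped with mTEC, whose lowest library read 72.2. Ndufa4, grouped here with complex I by its name but now counted as a subunit of complex IV, and Ndufc2 were both higher by 0.68, and Cox6b1, the subunit joining complex IV monomers, by 0.50. Lower in epithelium were Cox7a2l, a factor that links complexes III and IV into supercomplexes, at -0.50 ± 0.13 (adjusted p = 0.00198), and Sdha and Atp5h, each at -0.34. Cox7a2l read 79.9 to 92.6 in cTEC and 0 to 92.2 in mTEC against 113 to 152 in Treg and 117 to 169 in CD4, with no overlap.

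The widest differences between epithelium and T cells at d30 were in tissue isoforms. Ndufa4l2 was higher in epithelium by 4.01 ± 0.61 (adjusted p = 1.13e-05), on medians of 2.53 CPM in mTEC and 0.361 in cTEC against 0 in both T cell populations. Cox8b, the muscle form of the smallest complex IV subunit (chr7:140898945-140900446, - strand, mm10), had 336 counts in the 11 epithelial libraries at d30, or 3.39 CPM, and none in the 11 T cell libraries. At d120 it had 214 counts, or 2.51 CPM, in 9 of 12 epithelial libraries and none in 12 T cell libraries. With a floor of 3 counts over the T cell group, Cox8b was at least 82.6-fold higher in epithelium at d30 and at least 89.8-fold higher at d120. A count of 0 limits the level only to that floor, and both bounds cover counting error alone. The highest single value, 66.1 CPM, rested on 1 count in the shallowest mTEC library. Its widely expressed partner Cox8a stood at 141 to 328 CPM in all 4 populations at d30.

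Cox6a2 had the opposite pattern. At d30 it read 93.1, 5.97, 18.5, 24.2 and 18.3 CPM in CD4 and 4.36, 11.9 and 32.6 (lowest, median, highest) in Treg, against at most 1.09 in cTEC and 4.84 in mTEC. The Treg minimum lay within the mTEC range. The change in epithelium was -4.30 ± 0.54 at d30 (adjusted p = 9.54e-07) and -3.27 ± 0.90 at d120 (adjusted p = 0.0046). Cox6b2, described in testis, was highest in Treg: 16.2, 20.9 and 32.6 at d30 against 4.48 to 5.97 in CD4, 3.5 to 7.84 in cTEC and 0 to 7.18 in mTEC. At d120 it was 12.7, 24 and 27.1 in Treg and 2.39, 6.85 and 7.85 in CD4. Cox7b2 was near 0, and Cox8c was above 0 in 1 mTEC library at d30 alone.

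**Figure D2:**
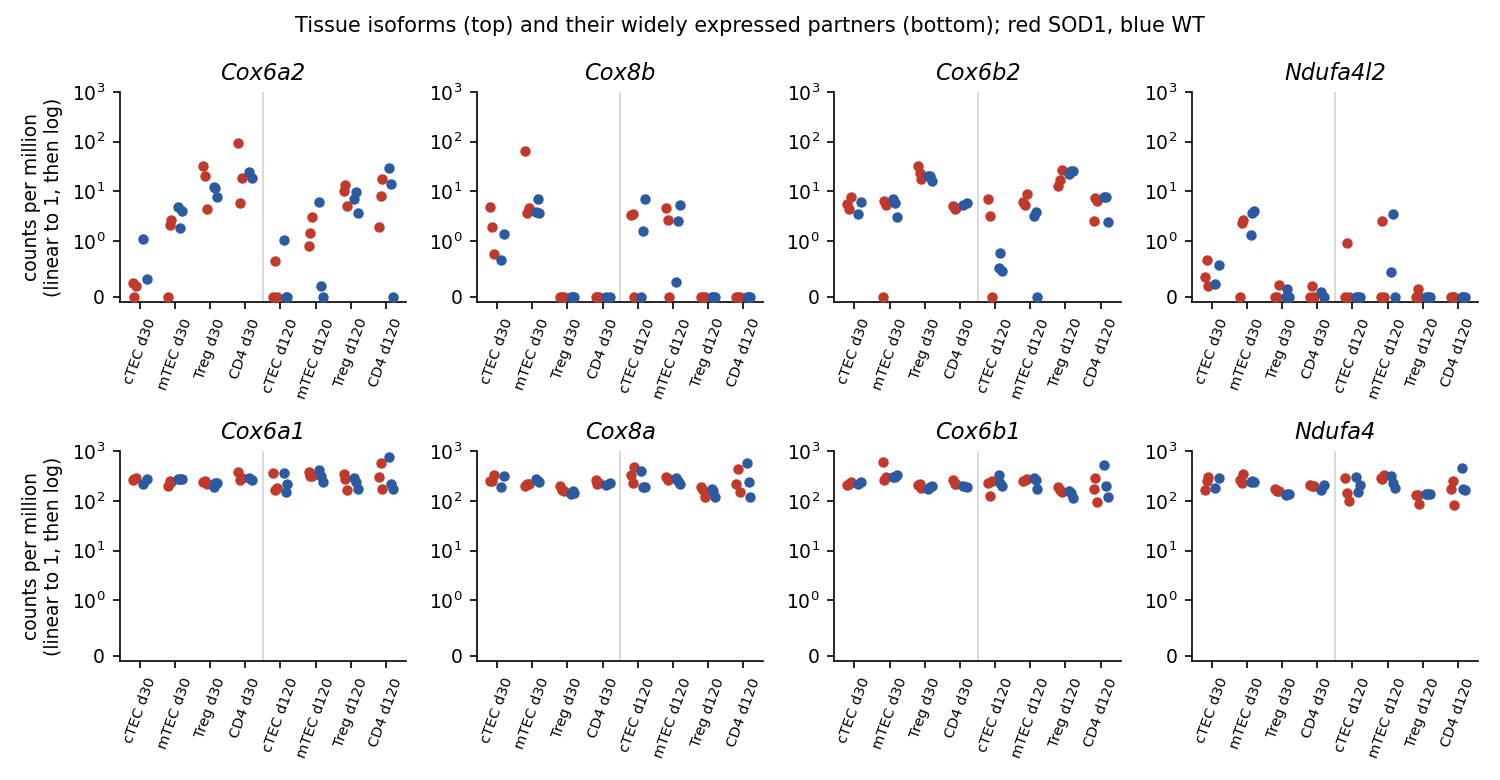
CPM (axis linear near 0 and logarithmic above) of 4 tissue isoforms (top) and their widely expressed partners (bottom) in every sorted library by population and day, SOD1 in red and WT in blue. Cox8b was at 0 in every T cell library, Cox6a2 was higher in T cells, and Cox6b2 was highest in Treg, while the partner Cox8a stood at 141 to 328 in every population at d30.

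Within T cells at d30, Treg and CD4 were close. Of 81 nuclear subunits 1 was higher and 1 lower (edgeR), where 9.94% of all genes passed. At an unadjusted p under 0.05 there were 9. Cox6b2 was higher in Treg, with 21.9 ± 5.85 CPM (SD, n = 6) against 5.15 ± 0.583 in CD4 (n = 5), and did not overlap (1.97 ± 0.29, adjusted p = 0.000175). Cox8a was lower in Treg, from 141 to 198 against 269, 223, 232, 213 and 228 in CD4, again without overlap (-0.61 ± 0.15, adjusted p = 0.0133). This call was lost without Treg SOD1 replicate 2 or 3 or CD4 WT replicate 2 or 3, with an adjusted p of up to 0.0840, and 5 nuclear subunits passed without the shallowest mTEC library. Of the 13 mitochondrially encoded subunits none passed, none had an unadjusted p under 0.05, and DESeq2 passed none. At d120 none of either genome passed between Treg and CD4 (8 nuclear and 3 mitochondrially encoded at an unadjusted p under 0.05; DESeq2 passed 1 nuclear and none mitochondrially encoded), and 1.02% of all genes passed. Without cTEC SOD1 replicate 3, 1 of each genome passed.

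For epithelium against T cells at d120, 10 of 13 mitochondrially encoded subunits were higher (median 0.99), as were 10 of 78 nuclear ones, with 2 lower, against 39.2% of all genes (22.3% as higher and 16.9% as lower). Without CD4 WT replicate 1 the nuclear calls were 20, not 12. mt-Co3, a core subunit of complex IV, was higher by 1.35 ± 0.22 (adjusted p = 2.06e-05). Uqcr11, a small subunit of complex III, was higher by 1.41 ± 0.33 (adjusted p = 0.00112), and Ndufc2 by 1.29. The 2 lower members were the isoforms Cox6a2, given above, and Cox6b2 at -1.84 ± 0.66 (adjusted p = 0.0266).

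Between d30 and d120 the mitochondrially encoded subunits rose in cTEC and CD4, while most nuclear ones did not pass. In cTEC, 11 of 13 mitochondrially encoded subunits rose (edgeR, median log2 fold change 1.90), all 11 with every d120 library above every d30 library (1.63% of all genes), where 4.63% of all genes passed (1.61% as higher and 3.02% as lower). Of 78 nuclear subunits none passed in either direction, 2 had an unadjusted p under 0.05 and DESeq2 passed none, with a median of 0.04 against -0.30 over all genes. On simulated counts the edgeR fit of this comparison recovered none of the 4-fold changes, so an absent call here says little. In CD4, 11 of 13 mitochondrially encoded subunits rose (median 1.63), 10 of them without overlap (3.57% of all genes), where 10.6% of all genes passed (4.66% as higher), and 3 of 77 nuclear ones fell (5.92% as lower). Day and set of libraries cannot be told apart, since each day formed its own set.

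In cTEC, mt-Cytb went from the 1141 to 1768 CPM of the 5 d30 libraries to 3215, 3804 and 7788 (lowest, median, highest) at d120, a change of 2.04 ± 0.30 (adjusted p = 0.00344). mt-Co1 read 1262, 1190, 1434, 1685 and 1524 at d30 and 2434, 4131 and 6128 at d120 (1.88 ± 0.28, adjusted p = 0.00373). Both genes were higher in every d120 library than in any d30 library. The highest d120 value of each came from SOD1 replicate 3, the library with few genes detected. mt-Nd4 changed by 2.34 ± 0.36 (adjusted p = 0.00434) and mt-Atp6, the proton channel subunit of ATP synthase, by 2.19 ± 0.33 (adjusted p = 0.00404). The calls rested partly on the 2 WT libraries at d30: without either of them 5 of 13 passed. Within libraries numbered 1 to 3 at d120, mt-Cytb was higher by 1.63, and within those numbered 4 to 6 by 2.33.

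Markers moved with day in cTEC. Ptprc went from 172 to 461 CPM at d30 to 7.08 to 82.8 at d120, the summed T cell markers from 740 to 1226 to 16.9 to 203, and the summed double-positive thymocyte markers from 447 to 897 to 5.45 to 150. Epcam, an epithelial surface protein, stood at 332 to 396 at d30 and 1037 to 1575 at d120. The libraries of the 2 days thus did not overlap in any of these 4 measures. Their part in the rise of the mitochondrially encoded subunits was not tested. In CD4, which are themselves T cells, the median of these subunits was 1.63, against 1.90 in cTEC; the difference was not tested.

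In CD4, mt-Nd6 read 153, 160.0, 126, 131 and 157 CPM at d30 (3 SOD1, then 2 WT) and 364, 569 and 802 at d120, a rise of 2.12 ± 0.24 (adjusted p = 0.00103). mt-Nd4 rose by 2.06 ± 0.27 (adjusted p = 0.00151), mt-Nd2 by 2.01, mt-Atp6 by 1.63 ± 0.23 (adjusted p = 0.00213) and mt-Co1 by 1.31 (adjusted p = 0.019). Without WT replicate 2 at d30, 6 of the 13 passed. mt-Nd4 was higher by 1.66 with libraries numbered 1 to 3 and by 2.24 with those numbered 4 to 6.

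The nuclear subunits that fell in CD4 were Sdha, Atp5b and Sdhc. Sdha (chr13:74322254-74350280, - strand, mm10) read 396, 310.1, 374, 345 and 306 CPM at d30 and 105, 139.6 and 186 at d120 (-1.18 ± 0.24, adjusted p = 0.00998). Atp5b read 1782, 1514, 1581, 1604 and 1686 at d30 and 615, 698 and 899.5 at d120 (-1.05 ± 0.23, adjusted p = 0.0134). For both genes every d120 library was below every d30 library. Sdhc, a membrane anchor of complex II, changed by -1.16 ± 0.34 (adjusted p = 0.0473). All 3 calls were lost without WT replicate 2 at d30, 1 was left without WT replicate 3 at d30, and 5 passed without WT replicate 1 at d120.

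Sdha and Atp5b also fell in Treg. Of 78 nuclear subunits 3 rose and 11 fell, a smaller share than the 29.9% of all genes that passed (16.1% as higher and 13.8% as lower). Sdha read 342, 366 and 422 CPM (lowest, median, highest) at d30 and 172, 187 and 236 at d120, a fall without overlap of 0.90 ± 0.10 on the log2 scale (adjusted p = 6.06e-05). Atp5b read 1643, 1717 and 1749 against 621, 1060 and 1286, also without overlap (-0.72 ± 0.16, adjusted p = 0.00429). Ndufb3, Ndufc1 and Ndufb2, accessory subunits of the complex I membrane arm, changed by -0.60 ± 0.11 (adjusted p = 0.00166), -0.54 ± 0.10 (adjusted p = 0.00171) and -0.73 ± 0.16 (adjusted p = 0.00521). The 3 that rose were Ndufb7 by 0.50, Ndufs7 by 0.47 and Atp5d, the delta subunit of ATP synthase, by 0.46. Summed B cell markers were 33.8 to 89.5 in Treg at d30 and 135 to 393 at d120, and their part was not tested. In cTEC and mTEC neither Sdha nor Atp5b passed with day, yet every d120 library was below every d30 library. That held for 12.5% of all genes in cTEC and 2.24% in mTEC. Sdha read 245 to 335 CPM at d30 and 84.3 to 240 at d120 in cTEC. In mTEC it read 190 to 463, then 103 to 168. Atp5b read 1163 to 1688, then 560 to 904 in cTEC, and 1123 to 1655, then 765 to 989 in mTEC.

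Of the mitochondrially encoded subunits 6 of 13 rose in Treg and 1 fell. The largest rises were in complex I, with mt-Nd6 at 1.31 ± 0.32 (adjusted p = 0.00889), mt-Nd4 at 1.30 ± 0.33 (adjusted p = 0.00972), mt-Nd5 at 1.25 ± 0.27 (adjusted p = 0.00444) and mt-Nd2 at 1.05. mt-Nd4 ran from 558 to 647 at d30 and from 582 to 2593 at d120, with overlap. mt-Nd3, a further complex I subunit, was the 1 that fell in Treg. It went from 96.0, 107 and 115 to 51.6, 61.4 and 82.7, and every d120 library was lower (-0.70 ± 0.13, adjusted p = 0.00134).

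The spread at d120 followed the library numbers. In Treg the ratio of the genomes was -0.67 to -0.08 in libraries numbered 1 to 3 (2 SOD1 and 1 WT) and 1.21 to 1.87 in those numbered 4 to 6 (1 SOD1 and 2 WT). In CD4 it was 0.22 to 0.65 and 1.79 to 1.92, and in mTEC 0.88 to 1.61 and 2.28 to 2.68. These sets did not overlap in 3 of 4 populations; cTEC, at 0.91 to 1.30 and 1.02 to 2.04, did. Against d30, the mean ratio of libraries 1 to 3 differed by 1.71 in cTEC, 0.96 in CD4, -0.16 in Treg and -0.42 in mTEC. That of libraries 4 to 6 differed by 2.20, 2.38, 1.82 and 0.78. cTEC and CD4 were above d30 in both sets, and Treg and mTEC overlapped with d30 in the first.

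Tested within each set, the mitochondrially encoded counts of cTEC were 11 and 12 of 13 higher (libraries 1 to 3, then 4 to 6), and those of CD4 12 and 10. In Treg they were 4 higher and 3 lower in the first set, then 11 higher and 1 lower, and mt-Co1 differed by -0.00 and 1.71. The nuclear counts turned: in CD4 31 rose and 5 fell with libraries 1 to 3 (26.4% of all genes passed) and none rose and 19 fell with libraries 4 to 6 (15%). In Treg 12 rose and 7 fell (32.9%), then none rose and 28 fell (32.7%). Sdha fell in both sets in both cell types, by -0.84 and -1.06 in Treg and by -1.20 and -1.28 in CD4, and so did Atp5b, by -0.48 and -1.06 in Treg and by -0.87 and -1.41 in CD4. In cTEC 2 nuclear subunits fell in the first set (15.7%). In the other 13 rose and 27 fell (54.6%), and the median of all genes was -3.75. That set includes SOD1 replicate 3, with 7627 genes detected. There Ndufa9, Ndufb10 and Uqcrc2 read 0 CPM and Atp5j read 1012. Its part in these calls was not tested.

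In mTEC no subunit of either genome passed between days (edgeR), where 3.16% of all genes passed (2.09% as higher and 1.06% as lower). The counts at an unadjusted p under 0.05 were 6 of 80 nuclear and 2 of 13 mitochondrially encoded, and DESeq2 passed 1 of each. Without the shallowest library, 1 nuclear and 2 mitochondrially encoded subunits passed. mt-Nd3 read 0 in that library, 219 to 369 CPM in the other d30 libraries and 65.6 to 108 at d120. mt-Atp8 ran from 791 to 1249 at d30 and from 364 to 735 at d120, without overlap, as for 2.24% of all genes. The median change of the 13 mitochondrially encoded subunits was 0.26. mt-Cytb ran from 4963 to 7991 CPM at d30 and from 3062 to 10393 at d120. For mt-Cytb, mTEC was thus already at the higher level at d30 and more spread at d120.

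**Figure D3:**
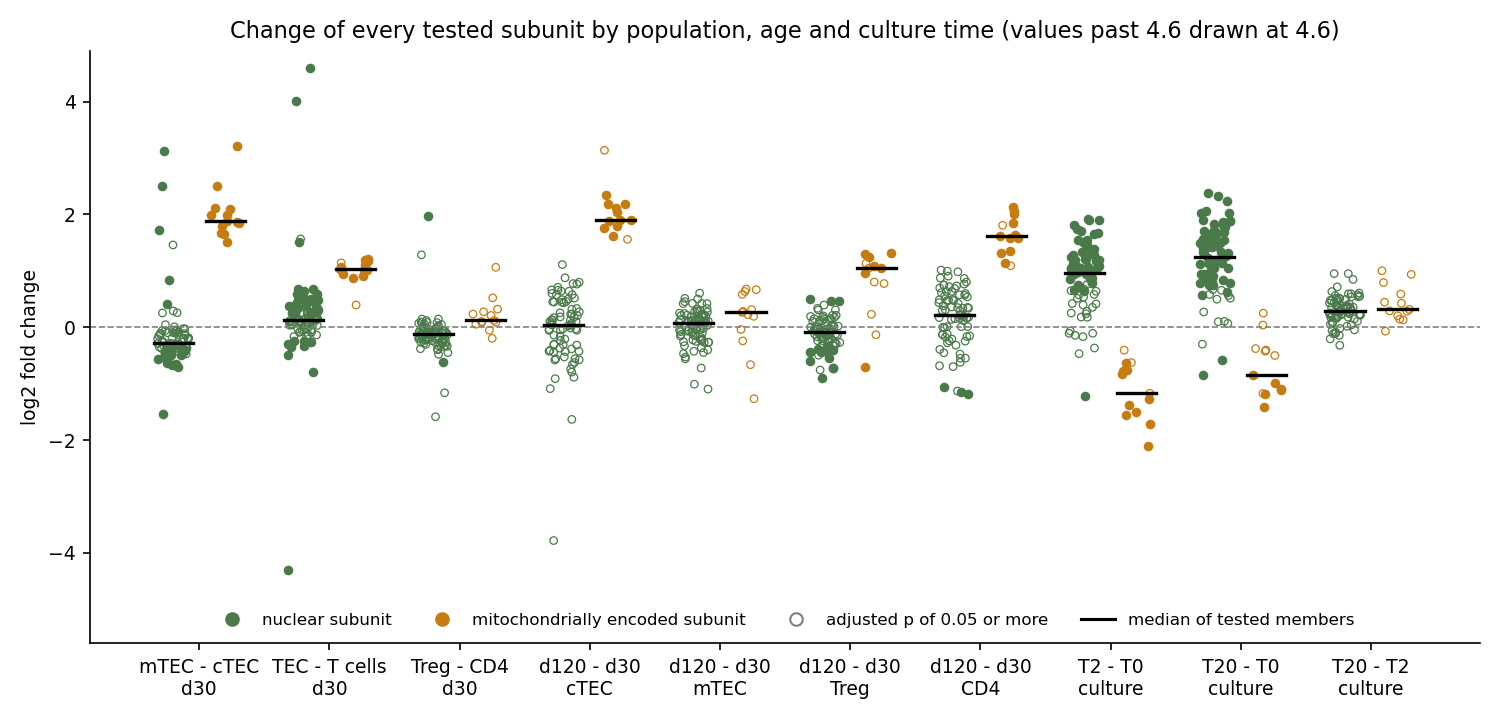
Log2 fold change of every tested nuclear (green) and mitochondrially encoded (orange) subunit in 10 comparisons, filled where the adjusted p is under 0.05, with a black line at the median; values past 4.6 are drawn at 4.6. The mitochondrially encoded median was 1.89 for mTEC against cTEC at d30 and 1.90 for cTEC with day, and in the cultures the genomes lay on opposite sides (1.25 nuclear and -0.84 mitochondrially encoded at T20).

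Between T0 and the activated times the genomes differed in opposite directions, with the limits that the mitochondrially encoded calls at T20 went from 6 to 0 without the libraries of low depth and that T0 also stood apart in cell markers. At T20 against T0, 61 of 75 nuclear subunits rose and 2 fell (edgeR, median 1.25 against -0.25 over all genes), where 58.2% of all genes passed (24.1% as higher and 34.1% as lower). For 62 of the nuclear subunits every T20 library was above every T0 library, as for 17.6% of all genes. Of the 13 mitochondrially encoded subunits none rose and 6 fell, with a median of -0.84. At T2, 47 nuclear subunits rose and 1 fell (median 0.96), and 10 mitochondrially encoded ones fell (median -1.17), where 58.1% of all genes passed (23.8% as higher and 34.3% as lower). Between T2 and T20 none of either genome passed (edgeR and DESeq2; 5 nuclear and 1 mitochondrially encoded at an unadjusted p under 0.05), as did 0% of all genes.

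The nuclear rise at T20 spanned the 5 complexes: 26 of 36 tested subunits in complex I, 2 of 4 in complex II, 8 of 8 in complex III, 9 of 10 in complex IV and 16 of 17 in complex V, with medians of 1.0, 0.73, 1.6, 1.66 and 1.27. Uqcrfs1 of complex III read 35.8, 46.0 and 73.6 CPM (lowest, median, highest) at T0, 120.2, 165 and 206 at T2 and 165, 181 and 191 at T20. It rose by 1.41 at T2 (adjusted p = 1.43e-05) and by 1.55 ± 0.20 at T20 (adjusted p = 5.93e-06). Both activated times were above T0 without overlap, and overlapped with each other. Ndufa9, an accessory subunit at the junction of the complex I arms, read 17.3, 35.6 and 50.4 at T0 and 84.0, 109.8 and 133 at T20 (1.43 ± 0.19, adjusted p = 8.03e-06).

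In complex IV, Cox6b1 (chr7:30616861-30626151, - strand, mm10) went from 69.2, 164 and 275 at T0 through 141, 601 and 1382 at T2 to 732, 1066 and 1389 at T20. T2 overlapped with T0 and T20 did not (2.38 ± 0.35, adjusted p = 1.72e-05). Cox7a2 rose by 2.06 ± 0.33 (adjusted p = 4.43e-05) and Cox5a by 1.56 (adjusted p = 0.000486). In complex V, Atp5b went from 318, 354 and 628 to 760.0, 1018 and 1444, a rise of 1.19 (adjusted p = 0.000134) without overlap. The 3 genes of the proton-driven c-ring moved alike: Atp5g1 from 20.4, 31.4 and 57.3 to 91.1, 156 and 207, Atp5g2 from 32.1, 54.7 and 74.0 to 193, 253 and 285, and Atp5g3 from 74.2, 123 and 173 to 336, 402 and 448. None of the 3 overlapped, and Atp5g2 had a rise of 1.87 ± 0.29 (adjusted p = 3.58e-05).

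Of the complex I core, Ndufv1, the NADH-binding subunit, stood at 0.50 (adjusted p = 0.0947). Sdhb rose by 1.16 (adjusted p = 0.00132), but its partner Sdha fell by 0.58 ± 0.18 on the log2 scale at T20 (adjusted p = 0.00973). The other nuclear subunit that fell was Cox7a2l, by 1.22 ± 0.22 at T2 (adjusted p = 0.000125) and by 0.85 ± 0.22 at T20 (adjusted p = 0.00262). Without the libraries of low depth, Sdha at T20 was -0.05 (adjusted p = 0.864) and Cox7a2l -0.56 (adjusted p = 0.135).

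Of the mitochondrially encoded subunits, mt-Co1 read 1362, 2425 and 4713 CPM (lowest, median, highest) at T0, 912, 1293 and 1492 at T2 and 1073, 1300 and 2363 at T20. It fell by 1.38 on the log2 scale at T2 (adjusted p = 0.000178) and by 1.09 ± 0.26 at T20 (adjusted p = 0.00134), with overlapping libraries. mt-Nd4 read 675, 1331 and 1976, then 393, 529 and 816, then 403, 702 and 1051, and fell by 1.51 (adjusted p = 0.000116) and 1.19 ± 0.27 (adjusted p = 0.000905). T0 libraries themselves spread widely, so single genes overlapped although the ratio of the genomes did not. mt-Atp6 changed by -1.12 ± 0.32 (adjusted p = 0.00617), mt-Nd5 by -0.84 (adjusted p = 0.00652), mt-Co2, the copper-binding subunit of complex IV, by -1.42 ± 0.43 (adjusted p = 0.00925) and mt-Cytb by -0.99 ± 0.31 (adjusted p = 0.0114) at T20. Leaving out the libraries of low depth ended every mitochondrially encoded call at T20 and left 5 at T2, mt-Nd4 at T20 then being -0.65 (adjusted p = 0.137). Without T0 WT replicate 3 or T20 WT replicate 2, 2 were left at T20, and without T20 SOD1 replicate 3 there were 3. At T2 the 10 became 5 without T0 WT replicate 3, T2 SOD1 replicate 3 or T20 SOD1 replicate 3, and 6 without T0 SOD1 replicate 3 or T20 WT replicate 2.

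The T0 libraries also differed from the activated ones in cell markers. The Treg list (Foxp3, Il2ra and others) summed to 56.2 to 436 CPM at T0, 1748 to 4812 at T2 and 1838 to 3824 at T20, against 1311 to 1597 in sorted Treg at d30. Foxp3, the factor that defines Treg, read 2.47 to 30.3 at T0, 58.1 to 267 at T2 and 40.9 to 336 at T20, against 34.6 to 78.2 in sorted Treg and 15.3 to 21.6 in sorted CD4 at d30. The label Treg was therefore not matched by its markers at T0. Summed endothelial markers were 90.3 to 109 at T0, 8.38 to 48.2 at T2 and 0 to 31.5 at T20, and fibroblast markers 58.5 to 123 at T0 and 0 to 48.2 at T2. Their part in the change of the subunits was not tested.

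**Figure D4:**
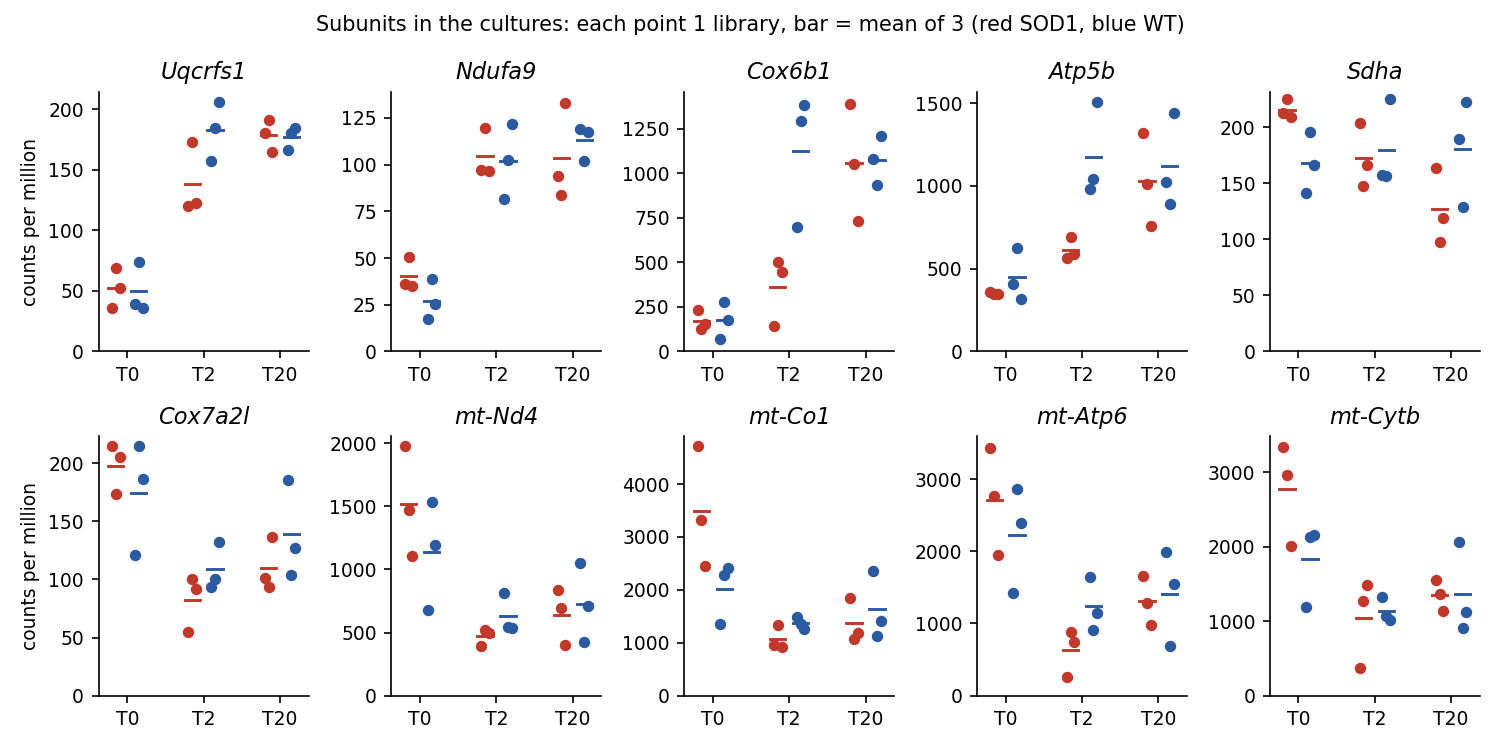
CPM of 6 nuclear and 4 mitochondrially encoded subunits in every culture library at T0, T2 and T20, SOD1 in red and WT in blue. Uqcrfs1, Ndufa9 and Atp5b were higher at T20 than at T0 in every library, whereas mt-Co1 (1362 to 4713 at T0 and 1073 to 2363 at T20) was lower with overlap.

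Since so many nuclear subunits moved together in culture, their promoters were searched for the motifs of 3 factors known to control such genes. Windows from 250 bases before to 50 after the start, from RefSeq (GRCm38.p6), were matched for 68 of 86 nuclear names (73 windows). The NRF1 motif, whose matches stand in capitals in the Atp5g2 and Sdhd lines, was searched with the others on both strands. It was in 24.7% of these windows and in 4.6% of all 32851 promoter windows. The ETS motif CCGGAAG, bound by GABP, was in 23.3% against 8.86%, and the YY1 motif AAGATGGC in 13.7% against 2.75%. The ETS and YY1 letters do not contain each other. At least 1 of the 3 was in 53.4% against 14.7%. Among members that rose at T20 the share was 56.1% of 57 windows, and among the other nuclear members 43.8% of 16, a difference of few windows that was not tested. A match is a description of letters and not of binding. Stretches of 60 bases are shown, read along the gene, for Cox6b1, Atp5g2, the complex II anchor Sdhd and the stalk subunit Atp5j. In each of these genes every T20 library was above every T0 library. Only the named match is in capitals. The Atp5j stretch also ends in the ETS letters, left in lower case.
Cox6b1, ETS, chr7:30626115-30626174, - strand: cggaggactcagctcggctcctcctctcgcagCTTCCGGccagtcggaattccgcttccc
Atp5g2, NRF1, chr15:102671055-102671114, - strand: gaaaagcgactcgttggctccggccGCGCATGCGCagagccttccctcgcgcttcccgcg
Sdhd, NRF1, chr9:50603894-50603953, - strand: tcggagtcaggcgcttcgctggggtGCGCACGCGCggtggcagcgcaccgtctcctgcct
Atp5j, YY1, chr16:84835031-84835090, - strand: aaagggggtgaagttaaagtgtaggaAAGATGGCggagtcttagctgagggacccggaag

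Other genes of the pathway were read from lists of helpers of the chain. In culture the mitochondrial ribosomal proteins, which translate the mitochondrially encoded subunits, moved with the nuclear subunits: 50 of 78 rose and 2 fell at T2, and 59 rose and 1 fell at T20 (median 1.04), so that 76.9% passed at T20 where 58.2% of all genes did. Mrpl45 rose by 2.16 at T20 (adjusted p = 1.25e-07) and Mrpl12 by 1.85. Among 45 assembly factors 14 rose and 2 fell at T20, a called share of 35.6% that is below those 58.2%, with the copper chaperone Cox17 at 2.09 and Uqcc2 at 1.67, and with Ttc19 at -1.35 and Surf1 at -0.83. Genes of mitochondrial transcription and RNA handling were divided, 4 rising and 8 falling of 25, also a smaller share (48%) than that of all genes: Slirp, which stabilises mitochondrial messengers, rose by 2.85, and Polrmt, the mitochondrial RNA polymerase, and Tfb1m fell by 1.13 and 1.29 on the log2 scale.

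Of 10 regulators tested 4 rose and 3 fell at T20, a share of 70% on few genes against 58.2% of all genes: Myc by 1.49 and Hcfc1 by 1.14, against Ppargc1b at -1.88, Nrf1 at -0.81 and Yy1 at -0.68. The 4 tested chain genes outside the rule rose, namely Cycs (cytochrome c) by 2.53, Ndufab1 by 1.53, Cyc1 by 1.44 and Cox4i1 by 1.15. Both mitochondrial ribosomal RNAs fell, mt-Rnr1 by 1.77 and mt-Rnr2 by 1.65 on the log2 scale, and their share of counts was 2.25% to 4.49% at T0 and 0.605% to 1.48% at T20. They thus moved with the mitochondrially encoded subunits.

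In the other comparisons the mitochondrial ribosomal RNAs also followed the mitochondrially encoded subunits. Both rose with day in cTEC (median 2.40) and in CD4 (median 2.0), and both were higher in mTEC than in cTEC at d30 (median 2.0). Of the nuclear helpers, in mTEC against cTEC at d30, 2 of 78 mitochondrial ribosomal proteins were higher and 29 lower (median -0.43), and 3 of 46 assembly factors were higher and 12 lower, where 28.2% of all genes were higher and 22.2% lower. The mitochondrial transcription factor Tfam was lower by 0.62 on the log2 scale and Polrmt higher by 0.81. In Treg with day 16 of 78 mitochondrial ribosomal proteins rose and 6 fell (median 0.27), where 16.1% of all genes rose and 13.8% fell. In CD4 2 rose and none fell (median 0.29), where 4.66% and 5.92% of all genes did.

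The genotype made no difference that passed the test in any of 13 sets. None of 1002 tests of nuclear subunits passed (edgeR, and limma for whole thymus), with 35 (3.49%) at an unadjusted p under 0.05 and a smallest adjusted p of 0.323. None of 168 tests of mitochondrially encoded subunits passed, with 9 (5.36%) at an unadjusted p under 0.05 and a smallest adjusted p of 0.170; without whole thymus SOD1 replicate 1, 1 passed. Among all genes, the share that passed was 0.00529% in mTEC, 0.00684% in cTEC, 0.00801% in CD4 and 0.0135% in Treg on either day, 0.0574% in iLN, 0.0831% in whole thymus, and 0.0679%, 0.0933% and 0.0933% in cultures at T0, T2 and T20. DESeq2 passed none of the nuclear tests and 1 mitochondrially encoded one, mt-Nd3 in cultures at T2 (-1.72, adjusted p = 0.0133). Medians per set ran from -0.62 to 0.27 for nuclear and from -0.54 to 0.67 for mitochondrially encoded subunits. Whether the genotype difference itself changed with day or culture time was also tested. None of 463 nuclear and none of 78 mitochondrially encoded tests passed (edgeR, 4 and 1 at an unadjusted p under 0.05). No genotype comparison was simulated, so the size of difference that these tests could find is not known.

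The set with the most single differences was the culture at T2, where 19 of 75 nuclear subunits had an unadjusted p under 0.05 where 8.78% of all genes did, and the median was -0.62. For 18 every SOD1 library was below every WT library, as for 4.85% of all genes. Nuclear subunits took 0.527%, 1.28% and 1.43% of counts in the SOD1 libraries and 1.34%, 1.75% and 1.92% in WT. SOD1 replicate 1, at 0.527%, also had the lowest mitochondrially encoded share, 0.378%. The ratio of the genomes overlapped between genotypes in all 13 sets, with differences from -0.82 (Treg at d120) to 0.36. In each sorted population at d120, libraries numbered 1 to 3 were 2 SOD1 and 1 WT. Those numbered 4 to 6 were 1 SOD1 and 2 WT. Genotype and set of library numbers are therefore partly confounded there. In whole thymus, mt-Cytb read 4164, 4486 and 4500 TPM in SOD1 and 4489, 5500 and 6447 in WT, and mt-Co1 12144, 11518 and 11135 in SOD1 and 11877, 13701 and 15615 in WT. Both overlapped between genotypes. For mt-Nd4l, mt-Nd2, mt-Nd4 and mt-Co3 every SOD1 library was below every WT library, as for 4.22% of all genes, and these 4 had an unadjusted p under 0.05 (limma), as did 3.42% of all genes. The smallest of their adjusted p-values was that of mt-Nd4l, 0.299 at -1.07. All 4 of these genes have a nuclear copy within the limits above, and the part of reads given to copies was not tested.

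**Figure D5:**
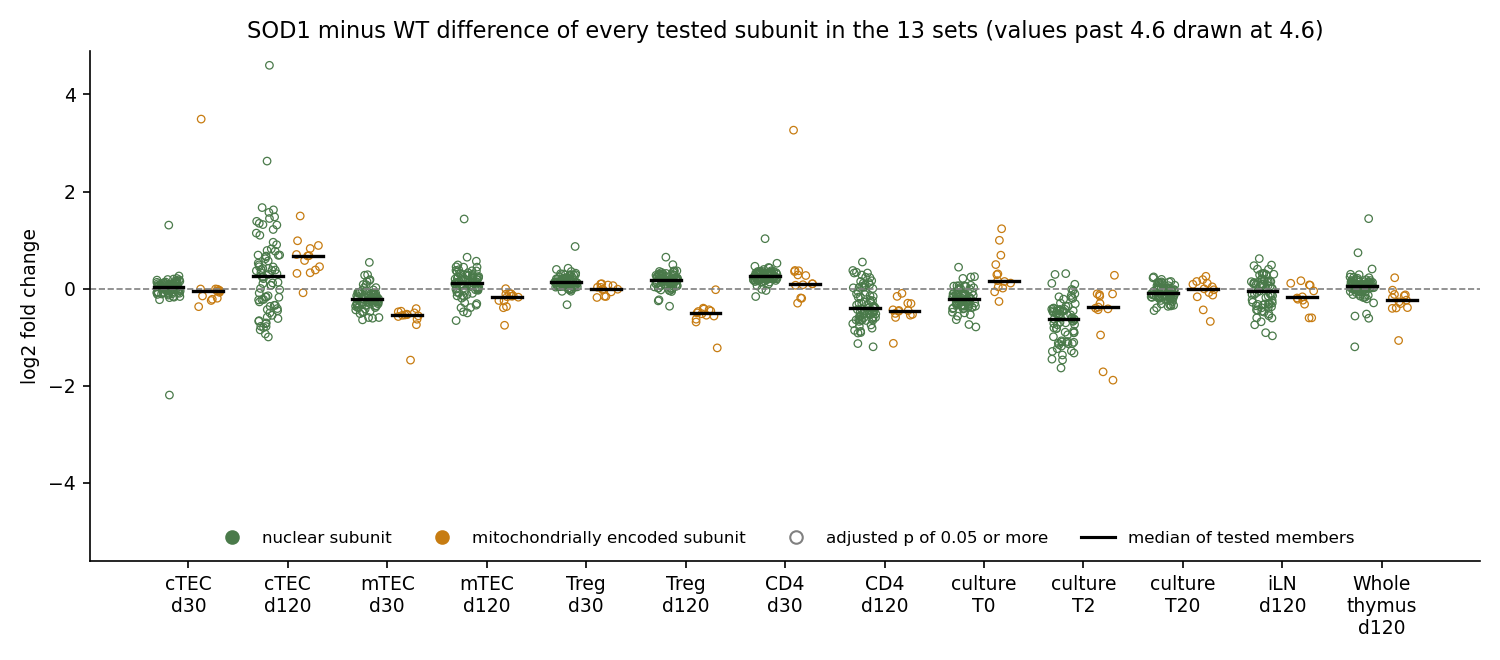
SOD1 minus WT log2 fold change of every tested nuclear (green) and mitochondrially encoded (orange) subunit in 13 sets, with whole thymus on the log2(TPM + 1) scale; every circle is open since none had an adjusted p under 0.05. Set medians of nuclear subunits ran from -0.62 (cultures at T2) to 0.27.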

How the data were processed

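RNA was sequenced after SMARTseq v4 low-input amplification, per the labels. For sorted cells, cultures and iLN the authors deposited raw read counts per gene. For whole thymus the authors deposited TPM. The submitters' processing notes name mm10 and DESeq2, without a role. The aligner, counting and strand setting were not given in the sources used here.

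Members were joined by gene ID, and 55094 IDs matched GENCODE vM21. Levels are CPM on the library total. Counts were tested with edgeR 4.0.16 quasi-likelihood models (R 4.3.3; TMM, filterByExpr, group means, Benjamini-Hochberg over all genes, adjusted p under 0.05): per population for day and genotype, per day for populations, and over the cultures. Whole thymus was tested with limma 3.58.1 on log2(TPM + 1), mean of at least 1 TPM. A dispersion per gene had been planned. On simulated counts with 200 changed genes it made 15.5% false calls in the culture comparison, 24.1% between mTEC and cTEC and 20.8% in Treg with day, and the trended dispersion used instead made 7.32%, 6.39% and 5.35%. The trended fit recovered 75.7%, 59% and 69.7% of 4-fold changes there, but none of those simulated for cTEC with day, where its 1 call was false and the dispersion per gene made 47.6% false calls. An absent call in that comparison says little, and the genotype tests of cTEC came from the same fit. No genotype comparison was simulated.

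Alternatives were DESeq2 1.42.0, median-of-ratios scaling, dispersion per gene, no filter, no low-depth libraries, each library left out and a replicate block; the sets of d120 library numbers were chosen after seeing the data. Named genes were a panel per complex, up to 5 nuclear and 4 mitochondrially encoded members per direction with the smallest adjusted p, tissue isoforms with their partners, the c-ring genes, and members with a fold past 2 against their genome. A member of that panel is not reported here. Members and lists were chosen with earlier results of these data known. Nuclear copies were found with BLAST+ 2.17.0 in the vM21 transcripts (at least 200 bases, 95% identity).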

Additional observations from a re-analysis of the deposited data

Results flagged for a closer look

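In 5 cases, every sample of 1 set moved one way and every sample of another set the opposite way under the same contrast. None of these differences was tested. With day, mt-Atp8 stood at 1.35 in CD4 and -0.664 in mTEC on the log2 scale, a gap of 2.02, and at 1.79 in cTEC, a gap of 2.46 from mTEC. For SOD1 minus WT, Cox5a stood at 0.171 in Treg at d30 and -0.715 in cultures at T2, a gap of 0.885. It stood at 0.0893 in cTEC at d30, a gap of 0.804 from the same cultures. For SOD1 minus WT, mt-Co1 stood at 0.497 in cultures at T0 and -0.37 in cTEC at d30, a gap of 0.867. No genotype value here had an adjusted p under 0.05.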

How the results depend on the processing

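No named gene that passed was reversed under these alternatives. Values that passed no test did change sign: the median of nuclear subunits in CD4 with day was 0.74 with d120 libraries numbered 1 to 3 and -0.73 with 4 to 6, and that of mitochondrially encoded subunits in mTEC with day was -0.22 and 0.64. Numbers of calls that moved by over 1.5 times were as follows, with the cause not tested. With DESeq2, nuclear calls were 1 for mTEC with day, 1 for mTEC against cTEC at d120, 1 for Treg against CD4 at d120 and 22 for epithelium against T cells at d120, and mitochondrially encoded calls were 1 for mTEC with day and 1 for genotype. Median-of-ratios scaling gave 1 mitochondrially encoded call in mTEC with day. A dispersion per gene gave 1 there, 4 nuclear calls for Treg against CD4 at d30 and 1 mitochondrially encoded call for genotype. Without a filter on low counts, nuclear calls were 5 (CD4 with day), 11 (mTEC against cTEC, d30), 20 and 6 (epithelium against T cells, d30 and d120) and 1 (genotype). Mitochondrially encoded ones were 1 (mTEC with day), 11 (Treg with day), 1 and 1 (Treg against CD4, d30, and mTEC against cTEC, d120), 6 and 1 (T2 and T20 against T0) and 3 (genotype). Without low-depth libraries, nuclear calls were 1 for mTEC with day, 5 and 1 for Treg against CD4 at d30 and d120, and 1 for mTEC against cTEC at d120, and mitochondrially encoded ones 2 for mTEC with day, 1 for Treg against CD4 at d120, 5 at T2 and 0 at T20. With d120 libraries numbered 1 to 3 and 4 to 6, nuclear calls were 2 and 40 in cTEC with day, 36 and 19 in CD4 with day, 1 and 20 for mTEC against cTEC and 6 and 25 for epithelium against T cells. They were 28 in Treg with day for 4 to 6, and 1 each for mTEC with day and Treg against CD4 for 1 to 3. Mitochondrially encoded calls were 12 (Treg with day, 4 to 6), 1 (mTEC against cTEC, 4 to 6) and 2 (Treg against CD4, 1 to 3).

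Leaving out 1 library at a time gave as few as 5 mitochondrially encoded calls in cTEC with day, 6 in CD4 with day and 5 at T2, and from 2 to 7 at T20. Nuclear calls ran from 0 to 5 in CD4 with day and from 1 to 5 for Treg against CD4 at d30. They ran from 9 to 23 for mTEC against cTEC at d30 and from 8 to 20 for epithelium against T cells at d120, and were as few as 22 for the latter at d30. They reached 1 for mTEC with day and, at d120, for mTEC against cTEC and Treg against CD4. Mitochondrially encoded calls reached 2 for mTEC with day and 1 for mTEC against cTEC at d120, Treg against CD4 at d120 and genotype.

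The SOD1 minus WT ratio of the genomes moved from -0.211 to 0.242 in cTEC at d30, from 0.256 to 0.828 in cTEC at d120 and from -0.346 to -0.766 in mTEC at d30 with the mean of logs in place of sums. It moved from 0.191 to 0.569 in cultures at T2 without low-depth libraries. Fits with a replicate block kept all 30 main results, and of single genes only Sdhc in CD4 with day was lost (-1.12, adjusted p = 0.0653). Pairs of libraries of the same genotype and replicate number, which is not the library number, were compared across populations or culture times. Their deviations correlated above 0.1 in 13 of 31 pairs at d30, 6 of 36 at d120 and 5 of 18 in cultures. Among libraries of the same genotype with different replicate numbers, 1 of 60, 0 of 72 and 0 of 36 pairs did. Libraries with the same replicate number may thus be linked across populations and culture times. The main fits took all libraries as independent, and only the replicate block took up the replicate numbers. mt-Nd4l was at 0 in 19 of 70 count libraries.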
